A study of Mus musculus with 28 samples.

Results

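The genes described here are 10 regulators and effectors of the integrated stress response, Atf4, Ddit3, Atf5, Atf3, Trib3, Chac1, Sesn2, Ddit4, Ppp1r15a and Stc2, chosen by name and found by Ensembl ID among the 43430 genes of the count tables. Their counts were read in 28 bulk RNA libraries of regulatory T (Treg) cells, which restrain immune responses, sorted as CD4+ YFP-Foxp3+ CD25+ from mice of strain C57BL/6NJ. RISP, the Rieske iron-sulfur subunit of respiratory complex III encoded by Uqcrfs1, was knocked out in 4 libraries (RISP_KO) and intact in 4 (RISP_WT) from mice 3 weeks old. Chimeras, 8 to 12 weeks old, gave a further 4 libraries without RISP (RISP_Chimera_KO) and 4 with it (RISP_Chimera_WT). For the inhibitors, cells with intact RISP from mice 3 weeks old were held in vitro untreated, or with 1 µM piericidin against complex I, 500 µM 3-NPA (3-nitropropionic acid) against complex II, or 1 µM antimycin A against complex III (n = 3 each). The driver of the deletion, the make-up of the chimeras and the exposure time are not given in the sources used here.

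In the integrated stress response, kinases that sense amino acid shortage, heme deficiency, mitochondrial or endoplasmic reticulum stress phosphorylate the translation factor eIF2. Most protein synthesis then slows while ATF4 mRNA is translated more, and ATF4 turns on genes of amino acid supply together with the regulators named here. Because ATF4 is controlled largely in translation, its mRNA level does not report its activity directly. DDIT3, also called CHOP, and TRIB3 are induced below ATF4, and PPP1R15A, also called GADD34, brings a phosphatase back to eIF2.

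Libraries held 28.4 to 50.8 M counts in the 3-week-old mice, 20.4 to 31.0 M in the chimeras and 2.71 to 3.45 M in vitro. Uqcrfs1 read 5.2 to 7.28 CPM (counts per M counts, on scaled library sizes) in RISP_KO against 151 to 189 in RISP_WT, and 4.83 to 11.3 in RISP_Chimera_KO against 72.7 to 87.7 in RISP_Chimera_WT. The summed level of 6 Treg markers was 3206 to 3620 CPM in the 16 knockout and control libraries and 5766 to 6703 CPM in vitro, with no marker at 0 in any library. In bulk RNA, fewer cells with a transcript and less transcript per cell cannot be told apart. Whether each replicate is its own mouse is not given, so p-values cover only how far these libraries differ, and that spread can be technical.

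Promoter sequence was read from RefSeq (GRCm38.p6, the same assembly as mm10), which holds all 10 genes in 11 windows, since Atf5 has 2 start sites. The 250 bases before each start were searched on both strands for TGATGCAA (TTGCATCA on the other strand), one spelling of the C/EBP-ATF response element that ATF4 and C/EBP partners bind, and for TGACGTCA, the palindromic cAMP response element that ATF and CREB factors bind. Of the 10 genes, 3 held either motif, and these 3 windows are shown because they carry the letters searched for and belong to genes with different behaviour in the counts. The capitals mark the motif, and each window runs 5′ to 3′ on the strand of its gene.
Chac1, chr2:119350992-119351241, plus strand: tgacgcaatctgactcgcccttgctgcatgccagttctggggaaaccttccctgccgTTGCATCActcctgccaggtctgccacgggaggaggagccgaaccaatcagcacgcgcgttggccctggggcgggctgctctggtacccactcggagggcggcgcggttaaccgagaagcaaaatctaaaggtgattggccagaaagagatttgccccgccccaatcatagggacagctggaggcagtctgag
Atf3, chr1:191183334-191183583, minus strand: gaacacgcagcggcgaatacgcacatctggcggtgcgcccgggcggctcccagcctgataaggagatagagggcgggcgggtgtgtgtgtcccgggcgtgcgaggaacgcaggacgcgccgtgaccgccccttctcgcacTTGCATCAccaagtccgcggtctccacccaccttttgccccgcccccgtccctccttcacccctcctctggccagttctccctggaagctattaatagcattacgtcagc
Ppp1r15a, chr7:45526269-45526518, minus strand: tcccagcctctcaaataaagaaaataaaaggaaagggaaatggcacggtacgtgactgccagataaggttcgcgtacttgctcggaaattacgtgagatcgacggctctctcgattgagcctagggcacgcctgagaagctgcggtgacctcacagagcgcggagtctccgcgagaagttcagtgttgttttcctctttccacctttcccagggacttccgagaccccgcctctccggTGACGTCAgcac
The start site of Atf3 used by RefSeq lies inside the gene span given below, which begins farther upstream. TTGCATCA lay 193 to 186 bases before the start of Chac1 and 110 to 103 bases before that of Atf3, and TGACGTCA lay 12 to 5 bases before the start of Ppp1r15a. Of 32851 RefSeq promoter windows of this length, 260 (0.791%) held the C/EBP-ATF element in this spelling and 508 (1.55%) the cAMP response element. Neither spelling was found in the windows of the other 7 genes, and other spellings were not searched.

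Knockout of RISP in 3-week-old mice raised 5 of the 10 genes. The CHOP gene Ddit3 and the factor Atf5 rose among the transcription factors, and Trib3, Chac1 and Stc2 rose among the effectors. Among these 5 Chac1 showed the largest change, with Stc2 and Trib3 next, and none of the 10 fell. Over all genes tested, 9.86% passed the same test (edgeR quasi-likelihood F-test, Benjamini-Hochberg adjusted p under 0.05 over all genes, used throughout). The median log2 fold change of the 10 was 1.14, against 0.00 over all genes. The 10 genes and the lists below were chosen with earlier results of these data known, so such contrasts with all genes are a description.

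Atf4 (chromosome 15, 80255184 to 80257540, mm10), the central factor of the response, read 98.5, 66.4, 63.8 and 66.9 CPM in RISP_WT and 142, 103, 82.8 and 87.0 CPM in RISP_KO. The first RISP_WT library lay above 2 of the 4 knockout libraries, so the groups overlapped. The log2 fold change of Atf4 was 0.49 ± 0.19 (SE), and the adjusted p of 0.133 missed the threshold. Ddit3 (chromosome 10, 127290774 to 127296288), which encodes the CHOP factor that promotes cell death in prolonged stress, read 18.7, 17.8, 18.7 and 11.3 CPM in RISP_WT and 21.2, 31.5, 35.1 and 29.9 CPM in RISP_KO. Every knockout library was above every control. Its log2 fold change was 0.82 ± 0.20 (adjusted p = 0.0248), and the call was lost without RISP_WT 1, 2 or 3 or RISP_KO 2 or 3 (adjusted p 0.0519 to 0.0653). Of the 1713 exon bases of Ddit3, 3.97% overlap Mars on the other strand. The strand setting of the counting is not given.

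Atf5 (chromosome 7, 44812257 to 44816658), a factor linked to the mitochondrial unfolded protein response, was close to the limit of detection before knockout. It read 0.649, 0.620, 0.414 and 0.468 CPM in RISP_WT, from 15 to 24 counts, and 2.13, 0.951, 1.55 and 1.30 CPM in RISP_KO. The groups did not overlap, and the log2 fold change was 1.46 ± 0.34 (adjusted p = 0.0205). Without RISP_WT 3 or 4 the adjusted p was 0.0623 to 0.0669. The exons of Atf5 overlap those of Il4i1 on the other strand over 4.11% of their bases. Atf3 (chromosome 1, 191170296 to 191218039), an early stress factor, read 0.162, 0.155, 0.165 and 0.273 CPM in RISP_WT and 0.728, 0, 1.74 and 0.463 CPM in RISP_KO. Of the knockout libraries, 3 were above all controls and the remaining one held no count. Its log2 fold change of 1.93 ± 0.84 did not pass (adjusted p = 0.177), but passed without RISP_KO 2 (2.33 ± 0.52, adjusted p = 0.0261).

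Trib3 (chromosome 2, 152337422 to 152344032), a pseudokinase that binds ATF4 and AKT, read 8.93, 5.79, 10.8 and 6.89 CPM in RISP_WT and 32.8, 20.5, 29.4 and 25.9 CPM in RISP_KO. The lowest knockout library was above the highest control, and Trib3 rose 3.35-fold (log2 1.74 ± 0.22, adjusted p = 7.73e-04). Chac1 (chromosome 2, 119351229 to 119354381) encodes an enzyme that degrades glutathione. It read 0.0541, 0, 0.165 and 0.273 CPM in RISP_WT, from 0 to 14 counts, and 5.32, 2.01, 1.80 and 3.65 CPM in RISP_KO, from 57 to 190 counts. Chac1 was thus nearly absent from the control libraries and present in each knockout library, with a log2 fold change of 4.59 ± 0.68 (adjusted p = 0.00199). Stc2 (chromosome 11, 31357307 to 31370074), which encodes the secreted glycoprotein stanniocalcin-2, read 1.38, 1.499, 1.87 and 2.65 CPM in RISP_WT and 16.1, 8.73, 10.2 and 5.61 CPM in RISP_KO. The groups did not overlap, and Stc2 rose 5.45-fold (log2 2.45 ± 0.33, adjusted p = 0.00136). The calls of Trib3, Chac1 and Stc2 held in each of the 8 fits that left out 1 library.

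**Figure D1:**
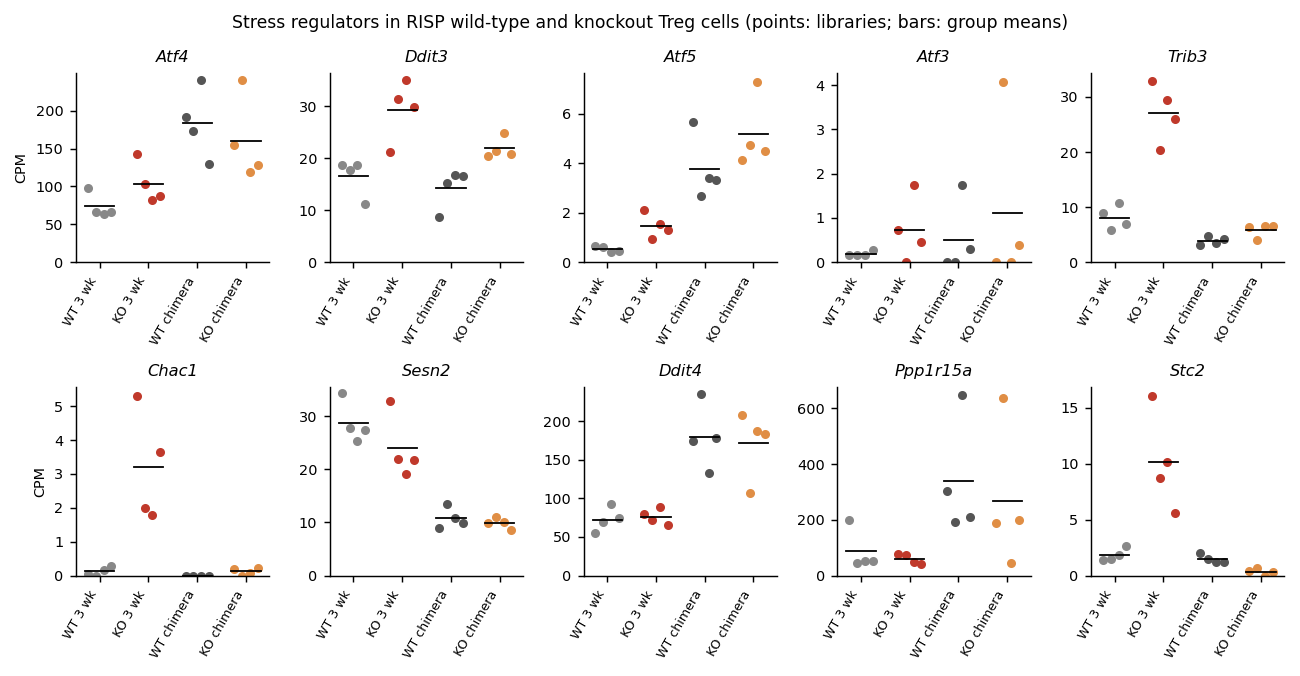
CPM (y axis, from 0, a separate scale in each panel) of the 10 genes in each library of the 4 knockout and control groups; points are libraries and bars are group means, n = 4. Ddit3, Atf5, Trib3, Chac1 and Stc2 of the 3-week-old knockout lie above all their controls. Of the chimera knockout, Ddit3 lies above and Stc2 below all of its controls, and neither passed the test there.

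The 2 inhibitors of the growth kinase mTORC1 in the set did not pass the test in the 3-week-old knockout. Sesn2 (chromosome 4, 132492032 to 132510501), a leucine sensor that is also a p53 target, read 34.3, 27.8, 25.3 and 27.3 CPM in RISP_WT and 32.9, 21.9, 19.2 and 21.7 CPM in RISP_KO (log2 -0.26 ± 0.18, adjusted p = 0.390). Ddit4 (chromosome 10, 59949675 to 59951770), also called REDD1, read 55.0, 68.9, 92.2 and 74.0 CPM in RISP_WT and 79.3, 72.2, 88.2 and 65.3 CPM in RISP_KO (log2 0.07 ± 0.15, adjusted p = 0.809). Both groups overlapped for both genes, and the 95% interval of Ddit4 ran from -0.26 to 0.40.

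Ppp1r15a (chromosome 7, 45522916 to 45526268), the feedback phosphatase subunit, read 198, 46.3, 53.3 and 52.0 CPM in RISP_WT and 78.7, 72.1, 46.9 and 42.9 CPM in RISP_KO. RISP_WT 1 stood far above the other 7 libraries. The log2 fold change was -0.54 ± 0.44 (adjusted p = 0.487) and turned to 0.25 ± 0.21 (adjusted p = 0.529) without that library. RISP_WT 1 also had the highest Atf4 of the controls and the highest summed level of 19 immediate early and dissociation genes, which respond within minutes to stimulation or cell handling. That sum was 5807 CPM in RISP_WT 1, 3150 to 3307 CPM in the other RISP_WT libraries and 3370 to 3483 CPM in RISP_KO. The part of these genes in the Ppp1r15a and Atf4 values was not tested. Without RISP_WT 1 the number of the 10 genes that rose was 4.

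**Figure D2:**
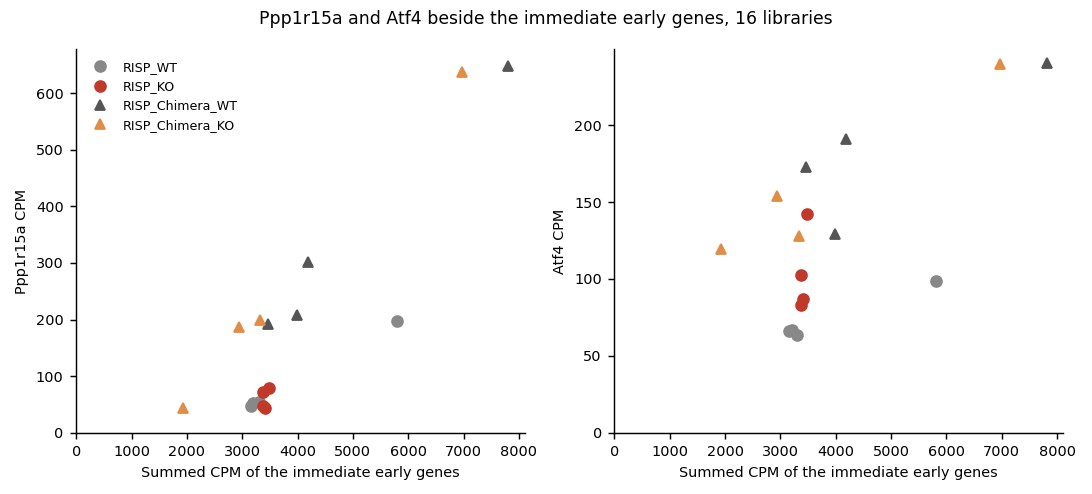
Ppp1r15a and Atf4 in CPM (y axes) against the summed CPM of 19 immediate early and dissociation genes (x axis) in the 16 libraries of the knockout experiments; circles are 3-week-old mice and triangles chimeras, coloured by group. RISP_WT 1, RISP_Chimera_WT 3 and RISP_Chimera_KO 2 have the highest sums, 5807, 7812 and 6971 CPM, and each has the highest Ppp1r15a of its group.

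Around the 10 genes, the metabolic targets of ATF4 (mainly amino acid synthesis, transport and tRNA charging) rose widely in RISP_KO. This list also holds other ATF4 targets, among them Cebpg and Jdp2, which stand in the bZIP list below too. Of 36 tested, 23 rose and 0 fell, with a median log2 fold change of 0.53. The neutral amino acid transporter gene Slc1a4 stood at 12.8 ± 3.28 CPM (SD, n = 4) against 1.57 ± 0.21 CPM (log2 3.03 ± 0.22, adjusted p = 6.06e-05), and the asparagine synthetase gene Asns at 62.2 ± 19.9 against 9.95 ± 3.47 CPM (log2 2.64 ± 0.28, adjusted p = 3.83e-04). Called genes made up 9.86% of all genes in this comparison, and the shares in the other lists of this paragraph lay near or below it. Of 20 eIF2 kinases and eIF2 machinery genes tested, Eif2s2, an eIF2 subunit (log2 0.43 ± 0.09, adjusted p = 0.0167), and Eif2b3, a subunit of its exchange factor (log2 0.47 ± 0.11, adjusted p = 0.0197), rose and none fell, with a median of -0.02. Of 20 endoplasmic reticulum (ER) stress targets of XBP1 and ATF6, Xbp1 itself rose (log2 0.83 ± 0.10, adjusted p = 7.34e-04) and 0 fell, with a median of 0.00. Of 12 mitochondrial chaperones and proteases, Hspa9, the mitochondrial HSP70, rose (log2 0.58 ± 0.09, adjusted p = 0.00367) and 0 fell.

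Among 20 bZIP factors that can pair with ATF4 or CHOP, 2 rose and 1 fell, where 9.86% of all genes passed. Batf, an AP-1 factor of T cells, read 195 ± 36.2 CPM in RISP_KO against 120 ± 9.55 CPM in RISP_WT (SD, n = 4; log2 0.70 ± 0.13, adjusted p = 0.00602). Cebpb rose from 0.714 ± 0.346 to 8.01 ± 9.07 CPM (log2 3.49 ± 0.88, adjusted p = 0.0305), with an SD above its mean in the knockout, and Cebpa fell by 2.44 ± 0.54 on the log2 scale (adjusted p = 0.0162). Of 7 paralogs of the 10 genes tested, 1 rose and 1 fell. Sesn1 fell from 375 ± 39.9 to 150 ± 14.4 CPM (log2 -1.32 ± 0.10, adjusted p = 6.24e-05) and Trib2 rose from 447 ± 9.60 to 723 ± 64.4 CPM (log2 0.69 ± 0.08, adjusted p = 4.57e-04). Of 14 p53 targets tested, 4 rose and 2 fell, with a median of 0.09. Sesn1 stands in this list too and is 1 of the 2 that fell, with the values just given. Those that rose include Phlda3 (log2 1.79 ± 0.21, adjusted p = 5.08e-04) and the cell cycle inhibitor gene Cdkn1a (log2 1.97 ± 0.26, adjusted p = 0.00110).

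Of the 6 Treg markers, 1 rose and 0 fell in RISP_KO, where 9.86% of all genes passed. Markers of other cells differed between the 3-week-old groups. The summed level of 10 monocyte and macrophage markers was 17.0 to 52.7 CPM in RISP_WT and 6.69 to 13.1 CPM in RISP_KO, and 4 of 9 tested fell. Of the 10, none had 0 counts in any RISP_WT library and 1 to 3 had 0 counts in each RISP_KO library. The sum of 3 NK cell markers was 3.89 to 7.003 CPM in RISP_WT and 12.4 to 21.7 CPM in RISP_KO, and 1 of 2 tested rose. The sum of 5 epithelial and stromal markers was 195 to 209 CPM in RISP_WT and 120 to 144 CPM in RISP_KO, and 2 of 5 tested fell. The sum of 7 B cell markers was 878 to 1060 CPM in RISP_WT and 762 to 964 CPM in RISP_KO, where 1 of 7 tested rose and 2 fell, and 1 of 3 dendritic cell markers tested fell. The part of these cells in the changes above was not tested.

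In the chimeras none of the 8 genes that could be tested passed, while 0.708% of all genes did. Without adjustment, 3 of the 8 had p under 0.05. These were Ddit3, Stc2 and Trib3, which ranked 445, 680 and 988 by p among the 14399 genes tested. The 0.708% above holds for adjusted p and is not the share to set beside these 3. The share of all genes with an unadjusted p under 0.05 is not given here. DESeq2 called 2, Ddit3 higher (log2 0.61, adjusted p = 0.0334) and Stc2 lower (log2 -2.11, adjusted p = 0.0430). It also called more of all genes than edgeR did, with the counts given below. Leaving out 1 library at a time gave 0 calls among the 8 in all 8 fits. Leaving out RISP_Chimera_WT 3 and RISP_Chimera_KO 2, or RISP_Chimera_KO 2 and 4, also gave 0. The median log2 fold change of the 8 was -0.10, against 0.00 over all genes.

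Among the transcription factors, Ddit3 read 8.79, 15.2, 16.8 and 16.7 CPM in RISP_Chimera_WT and 20.5, 21.5, 24.9 and 20.8 CPM in RISP_Chimera_KO. The groups did not overlap, and the log2 fold change was 0.60 ± 0.18 (adjusted p = 0.170). Atf4 read 191, 173, 241 and 129 CPM against 154, 240, 120 and 128 CPM (log2 -0.19 ± 0.21, adjusted p = 0.758). Atf5 read 5.66, 2.70, 3.42 and 3.33 CPM against 4.15, 4.74, 7.30 and 4.49 CPM (log2 0.46 ± 0.28, adjusted p = 0.526). For both Atf4 and Atf5 the groups overlapped. Atf3 was too low to be tested, at 0, 0, 1.74 and 0.309 CPM in RISP_Chimera_WT and 0, 4.07, 0 and 0.388 CPM in RISP_Chimera_KO.

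Of the effectors, Trib3 read 3.17, 4.72, 3.46 and 4.19 CPM in RISP_Chimera_WT and 6.38, 4.07, 6.64 and 6.59 CPM in RISP_Chimera_KO (log2 0.61 ± 0.23, adjusted p = 0.283). RISP_Chimera_KO 2 lay within the control range and the other 3 knockout libraries above it. Chac1 had 0 counts in all 4 RISP_Chimera_WT libraries and 6, 0, 2 and 7 counts in RISP_Chimera_KO, too few for the test. Against a floor of 3 counts over the whole control group, the knockout group, with 15 counts in all, was 4.71-fold higher. The floor covers counting error of the controls only. That ratio leaves out the counting error of the 15 knockout counts, so it is not a lower bound. Stc2 read 2.002, 1.49, 1.19 and 1.24 CPM, from 36 to 42 counts, in RISP_Chimera_WT and 0.365, 0.640, 0 and 0.355 CPM, from 0 to 17 counts, in RISP_Chimera_KO. Every knockout library was below every control, and the log2 fold change was -2.11 ± 0.71 (adjusted p = 0.225).

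Sesn2 (log2 -0.12 ± 0.16, adjusted p = 0.808) and Ddit4 (log2 -0.07 ± 0.19, adjusted p = 0.916) did not pass in the chimeras, with 95% intervals of -0.47 to 0.23 and -0.49 to 0.34. Ppp1r15a read 302, 192, 648 and 209 CPM in RISP_Chimera_WT and 187, 637, 43.4 and 199 CPM in RISP_Chimera_KO (log2 -0.34 ± 0.59, adjusted p = 0.857). Its spread was wide in both groups. The 2 libraries above 600 CPM, RISP_Chimera_WT 3 and RISP_Chimera_KO 2, also had the highest immediate early sums, 7812 and 6971 CPM, and RISP_Chimera_KO 3, the lowest at 43.4 CPM, had the lowest sum, 1931 CPM. The same 2 libraries had the highest Atf4 and Atf3 of their groups. The part of the immediate early genes in these values was not tested. Of 34 metabolic ATF4 targets tested in the chimeras, 0 passed, beside 0.708% of all genes. Of these targets, 28 had a log2 fold change above 0, with a median of 0.13 against 0.00 over all genes. Slc1a4, with the smallest p, stood at 3.10 ± 1.72 against 1.01 ± 0.26 CPM (SD, n = 4; log2 1.62 ± 0.40, adjusted p = 0.101).

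Whether the knockout effect differed between the experiments was tested in 1 fit of the 16 libraries. Stc2 passed, with a chimera effect lower than the effect in 3-week-old mice by 4.58 ± 0.69 on the log2 scale (adjusted p = 0.00109), and it was the only one of the 10 to pass, beside 3.27% of all genes. Its direction was opposite in the experiments, higher in all 4 RISP_KO libraries and lower in all 4 RISP_Chimera_KO libraries than in their controls. The lower level in the chimeras did not pass by itself (adjusted p = 0.225) and rests on 0 to 17 counts in the knockout libraries. The call of the difference held in all 21 alternatives run. Trib3 was close to the threshold (log2 difference -1.16 ± 0.31, adjusted p = 0.0507). It passed in 5 of the 21 alternatives, among them the fits without RISP_WT 3, RISP_KO 2 or RISP_Chimera_WT 1 (lowest adjusted p of these fits 0.0339). Over all 21 alternatives its adjusted p ran from 0.00886 to 0.117. Atf5 (-1.02 ± 0.43, adjusted p = 0.232) and Atf4 (-0.71 ± 0.32, adjusted p = 0.275) did not pass. No fold was computed for Chac1, which is at 0 in every RISP_Chimera_WT library. The fall of Uqcrfs1 itself was smaller in the chimeras, 12.1-fold against 28.4-fold, a log2 difference of 1.2 ± 0.27 (adjusted p = 0.0191), and its part in the other differences was not tested. Age, library kit and chimerism also differ between the experiments and cannot be told apart from each other in this contrast.

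**Figure D3:**
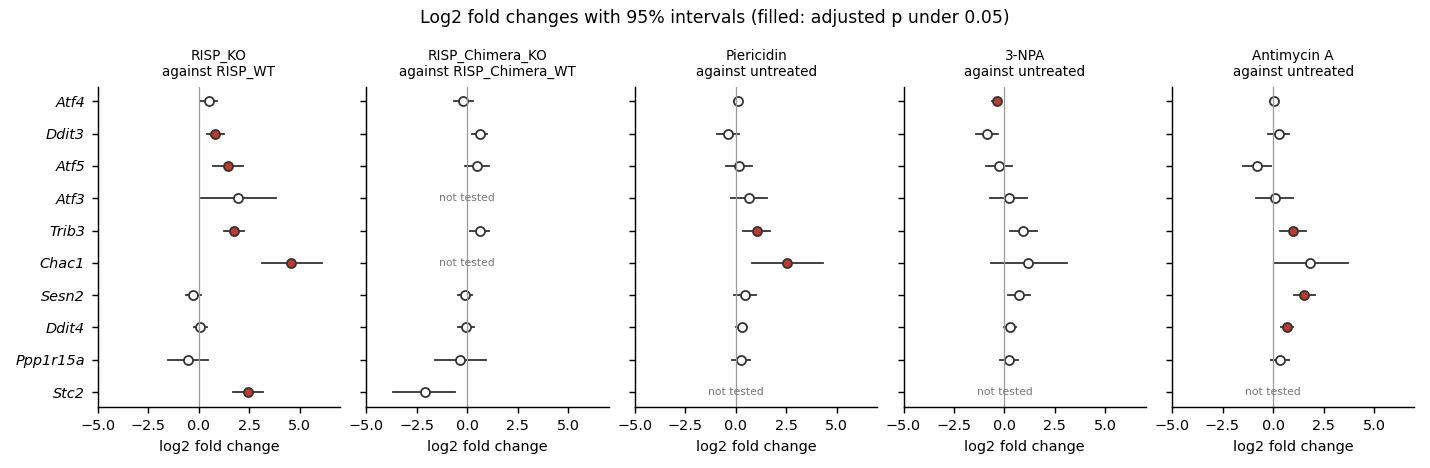
Log2 fold change against the matched control (x axis) of the 10 genes (y axis) in 5 comparisons; points are edgeR estimates, lines 95% intervals, and filled points have an adjusted p under 0.05. Filled points number 5 for RISP_KO, 0 for RISP_Chimera_KO, 2 for piericidin, 1 for 3-NPA and 3 for antimycin A.

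Against untreated cells in vitro, piericidin raised Trib3 and Chac1, 3-NPA lowered Atf4, and antimycin A raised Trib3, Sesn2 and Ddit4. Of the 9 genes tested, 2 passed for piericidin, beside 13.6% of all genes. For 3-NPA 1 passed, beside 3.23%, and for antimycin A 3 passed, beside 15%. The 3 comparisons share the same 3 untreated libraries. At this depth Stc2 was too low to be tested, with 2, 3 and 2 counts untreated. The piericidin libraries held 13, 15 and 3 counts of Stc2, those of 3-NPA 0, 5 and 3, and those of antimycin A 5, 6 and 5.

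Atf4 read 210, 202 and 227 CPM untreated, 207, 227 and 245 CPM with piericidin, 144, 183 and 162 CPM with 3-NPA and 223, 204 and 233 CPM with antimycin A. The 3-NPA libraries lay below all others. Atf4 fell by 0.39 ± 0.10 on the log2 scale with 3-NPA (adjusted p = 0.0302) and did not pass with piericidin (0.09 ± 0.10, adjusted p = 0.630) or antimycin A (0.05 ± 0.10, adjusted p = 0.821). The 3-NPA call was lost without In_vitro_Untreated 1 or 3 or In_vitro_3-NPA 1 or 3 (adjusted p 0.0887 to 0.175). Ddit3 read 24.7, 19.7 and 22.5 CPM untreated, 16.6, 20.7 and 13.8 CPM with piericidin, 9.59, 14.4 and 12.6 CPM with 3-NPA and 25.8, 28.7 and 26.5 CPM with antimycin A. With 3-NPA each library was below, and with antimycin A each was above, the untreated range, but neither comparison passed (log2 -0.87 ± 0.28, adjusted p = 0.0761, and 0.28 ± 0.26, adjusted p = 0.550).

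Atf5 read 14.0, 21.2 and 20.04 CPM untreated, 19.2, 21.5 and 20.2 CPM with piericidin, 14.7, 23.3 and 8.86 CPM with 3-NPA and 8.61, 10.2 and 13.0 CPM with antimycin A. The antimycin A libraries were all below the untreated ones, with a log2 fold change of -0.79 ± 0.33 that did not pass (adjusted p = 0.104). Atf3 overlapped between the untreated group (3.8 to 11.05 CPM) and each inhibitor (10.4 to 13.7, 4.06 to 14.0 and 7.89 to 8.94 CPM with piericidin, 3-NPA and antimycin A), and its adjusted p was 0.400 or higher.

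Trib3 read 6.82, 11.2 and 8.64 CPM untreated. It read 15.5, 13.8 and 24.8 CPM with piericidin, 19.9, 13.7 and 17.1 CPM with 3-NPA and 17.9, 19.6 and 15.3 CPM with antimycin A. All 9 treated libraries lay above the untreated range. Trib3 rose 2.03-fold with piericidin (log2 1.02 ± 0.33, adjusted p = 0.0303) and 1.98-fold with antimycin A (0.98 ± 0.33, adjusted p = 0.0358), while 3-NPA gave 0.92 ± 0.33 (adjusted p = 0.120). The piericidin call was lost without In_vitro_Untreated 1 or 3 or In_vitro_Piericidin 3 (adjusted p 0.0847 to 0.255) and with only the groups compared in the fit (0.0514). The antimycin A call was lost without In_vitro_Untreated 1 or 3 or In_vitro_AntimycinA 1 or 2 (adjusted p 0.0777 to 0.154), without a filter on low counts (0.0572) and with only the groups compared in the fit (0.0531).

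Chac1 had 0, 5 and 4 counts untreated and 7, 11 and 33 under piericidin. It had 11, 5 and 4 counts under 3-NPA and 16, 8 and 7 under antimycin A. The piericidin and antimycin A counts were all above the untreated ones, and the third piericidin library stood apart from the rest. Chac1 rose with piericidin (log2 2.51 ± 0.87, adjusted p = 0.0428) and did not pass with antimycin A (1.84 ± 0.90, adjusted p = 0.165) or 3-NPA (1.19 ± 0.93, adjusted p = 0.563). At these counts the piericidin call was fragile. It was lost without In_vitro_Untreated 1, 2 or 3 or In_vitro_Piericidin 2 or 3 (adjusted p 0.0682 to 0.344), without a filter on low counts (0.0527) and with a filter of 1 CPM (0.0645).

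**Figure D4:**
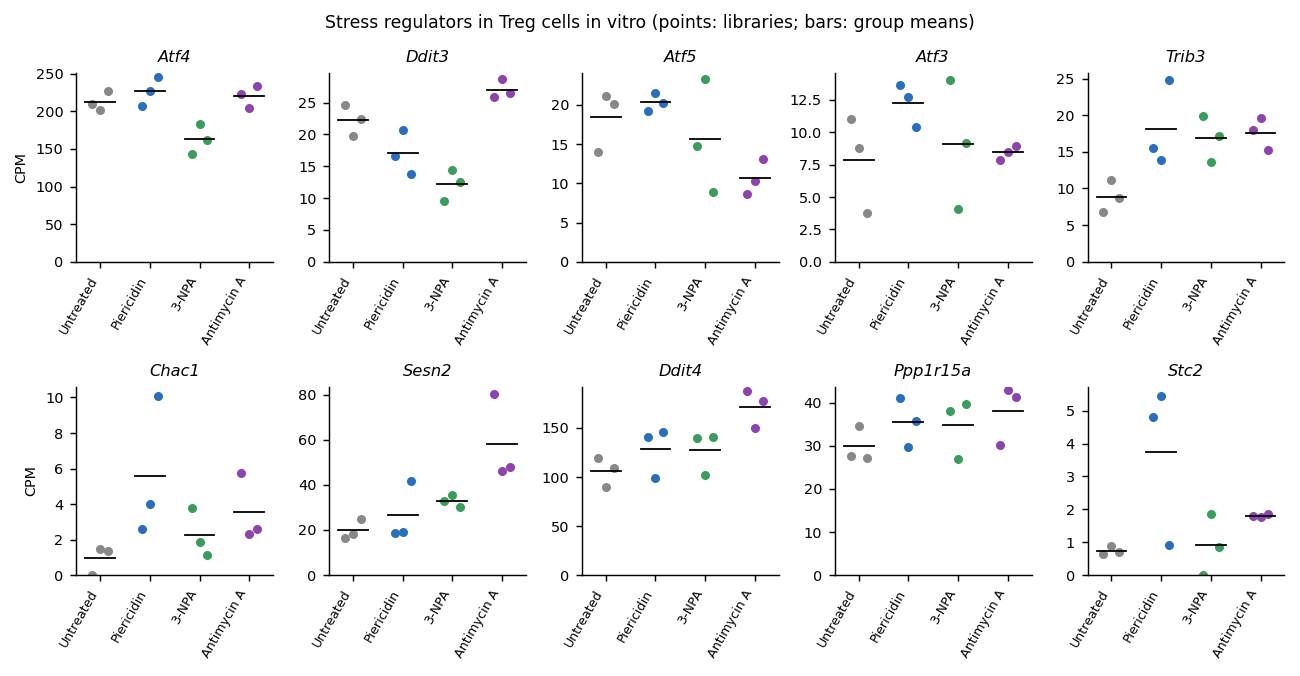
CPM (y axis, from 0, a separate scale in each panel) of the 10 genes in each in vitro library; points are libraries and bars are group means, n = 3. The antimycin A libraries hold the 3 highest values of Sesn2, 46.2 to 80.4 CPM, and the 3-NPA libraries the 3 lowest of Atf4, 144 to 183 CPM.

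Sesn2 and Ddit4 rose with antimycin A. Sesn2 read 16.2, 18.2 and 24.9 CPM untreated, 18.5, 19.3 and 41.7 CPM with piericidin, 32.9, 35.5 and 30.3 CPM with 3-NPA and 80.4, 46.2 and 48.1 CPM with antimycin A. The antimycin A libraries lay above all others, for a 2.94-fold rise (log2 1.56 ± 0.26, adjusted p = 2.26e-05). With 3-NPA the groups did not overlap either, but the change of 0.73 ± 0.26 did not pass (adjusted p = 0.125), and with piericidin it was 0.44 ± 0.27 (adjusted p = 0.316) and -0.06 ± 0.28 (adjusted p = 0.939) without In_vitro_Piericidin 3. Ddit4 read 119, 89.4 and 109 CPM untreated, 140, 99.0 and 146 CPM with piericidin, 140, 102 and 140 CPM with 3-NPA and 187, 150 and 177 CPM with antimycin A. It rose with antimycin A (log2 0.70 ± 0.14, adjusted p = 3.42e-04), where every library was above the untreated range. Both antimycin A calls held in each fit that left out 1 of the 6 libraries.

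Ppp1r15a read 27.3 to 34.7 CPM untreated, 29.8 to 41.0 CPM with piericidin, 27.0 to 39.7 CPM with 3-NPA and 30.1 to 43.0 CPM with antimycin A. These ranges overlapped, and its adjusted p was 0.304 or higher. The immediate early sum was 1829 to 2012 CPM untreated and 2105 to 2377 CPM over the 9 treated libraries, and its part in the in vitro values was not tested. The sum of 7 B cell markers was 536 to 583 CPM untreated, 305 to 326 CPM under piericidin, 377 to 514 CPM under 3-NPA and 406 to 500 CPM under antimycin A, and its part was not tested either. Of the 6 Treg markers, 2 rose and 0 fell with piericidin, 0 passed with 3-NPA, and 2 rose and 1 fell with antimycin A. Over all genes, 13.6%, 3.23% and 15% passed, in the same order.

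The compounds were also compared with each other. Antimycin A against piericidin gave 1 call among the 9 genes, Sesn2 (log2 1.12 ± 0.25, adjusted p = 0.0160), beside 0.736% of all genes. That call was lost without In_vitro_Piericidin 1 or 2 or In_vitro_AntimycinA 1 (adjusted p 0.163 to 0.228). Ddit3 (0.67 ± 0.27, adjusted p = 0.330), Ddit4 (0.41 ± 0.14, adjusted p = 0.194) and Atf5 (-0.93 ± 0.33, adjusted p = 0.235) did not pass. With the replicate number as a block in the fit, Ddit4 passed (0.0411). Antimycin A against 3-NPA gave 3 calls, Atf4 (0.43 ± 0.10, adjusted p = 0.00962), Ddit3 (1.15 ± 0.28, adjusted p = 0.0100) and Sesn2 (0.82 ± 0.25, adjusted p = 0.0492), beside 3.98% of all genes. Ddit4 did not pass (0.43 ± 0.14, adjusted p = 0.0735). It passed without a filter on low counts (0.0281), with only these groups in the fit (0.0427) and with the replicate block (0.0109). The Ddit3 call was lost without In_vitro_3-NPA 1 (adjusted p = 0.0887), the Atf4 call without In_vitro_3-NPA 1 or 3 or In_vitro_AntimycinA 3 (0.0606 to 0.136), and the Sesn2 call without any 1 of 5 of the 6 libraries, all but In_vitro_AntimycinA 2 (0.0711 to 0.371). The Sesn2 call was also lost with DESeq2 (adjusted p = 0.0656), RLE factors (0.0512) and a filter of 1 CPM (0.0677). Piericidin against 3-NPA gave 1 call, Atf4 (0.48 ± 0.10, adjusted p = 0.00425), beside 4.29% of all genes, lost without In_vitro_Piericidin 3 or In_vitro_3-NPA 1 (0.0533 to 0.0658).

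The same lists were counted in vitro, where 13.6% of all genes passed with piericidin, 3.23% with 3-NPA and 15% with antimycin A. Of 33 metabolic ATF4 targets tested, 9 rose and 4 fell with piericidin, 0 rose and 7 fell with 3-NPA, and 8 rose and 6 fell with antimycin A, with median log2 fold changes of 0.12, -0.24 and -0.04. Asns rose with piericidin (1.29 ± 0.22, adjusted p = 5.31e-05) and antimycin A (0.99 ± 0.22, adjusted p = 0.00112). The serine synthesis gene Phgdh fell by 0.49 ± 0.11 (adjusted p = 0.00204) and by 0.74 ± 0.11 (adjusted p = 6.73e-06) on the log2 scale. Of 20 ER stress targets, 0 rose in any of the 3 comparisons while 6 fell under piericidin, 1 under 3-NPA and 8 under antimycin A, among them Sdf2l1, an ER chaperone cofactor (-1.02 ± 0.22 with antimycin A, adjusted p = 8.67e-04). In antimycin A against piericidin 0 of the 33 metabolic targets, 0 of the 20 ER stress targets and 0 of 12 mitochondrial chaperones and proteases passed in either direction. Only 0.736% of all genes passed there, so 0 calls in lists of this size do not show that the compounds act alike. In piericidin against 3-NPA 13 of the metabolic targets were higher and 0 lower, beside 4.29% of all genes passing. In antimycin A against 3-NPA 4 were higher and 0 lower, beside 3.98%. The mitochondrial chaperone gene Hspd1 fell with piericidin (-0.80 ± 0.09, adjusted p = 7.57e-08) and antimycin A (-0.98 ± 0.09, adjusted p = 2.69e-10).

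Of 14 p53 targets, the list that Sesn2 would otherwise belong to, 12 rose and 0 fell with antimycin A (median log2 fold change 0.73), 4 rose and 0 fell with 3-NPA (0.49), and 2 rose and 3 fell with piericidin (-0.09). Over all genes, 15%, 3.23% and 13.6% passed, in the same order. Cdkn1a rose with 3-NPA from 29.7 ± 8.62 to 90.1 ± 7.01 CPM (SD, n = 3; log2 1.60 ± 0.19, adjusted p = 3.81e-07) and with antimycin A to 91.7 ± 18.2 CPM (1.63 ± 0.19, adjusted p = 3.66e-08). In antimycin A against piericidin, 9 of the 14 were higher and 0 lower, beside 0.736% of all genes passing. There Cdkn1a was 2.36 ± 0.20 higher on the log2 scale (adjusted p = 4.94e-11). Of 10 glucocorticoid and FOXO targets, 4 rose and 1 fell with piericidin, 2 rose and 0 fell with 3-NPA, and 3 rose and 1 fell with antimycin A, where Tsc22d3, also called GILZ, rose by 1.15 ± 0.13 on the log2 scale (adjusted p = 1.16e-08).

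**Figure D5:**
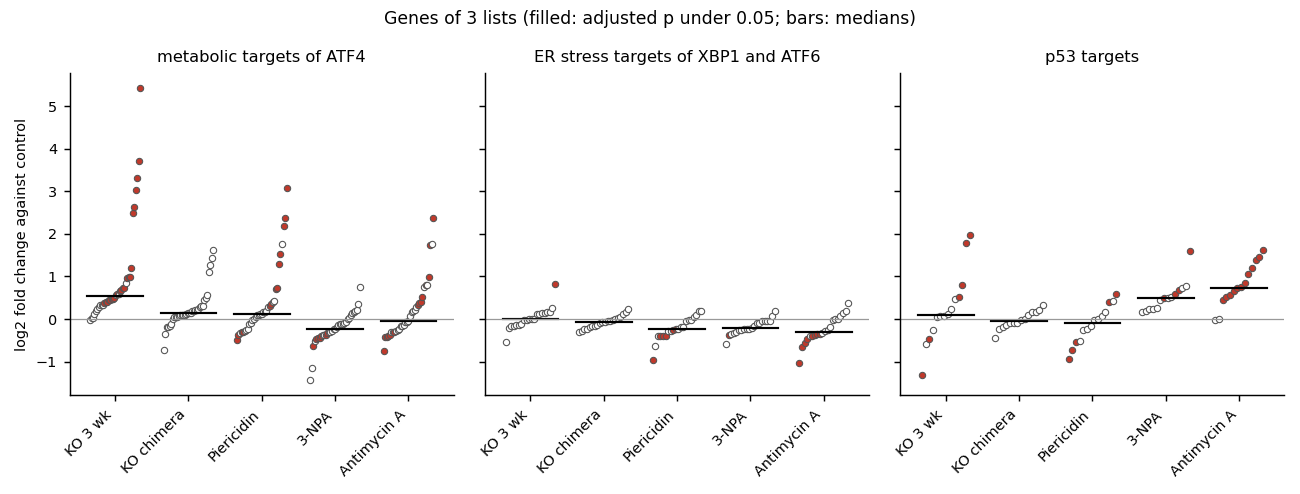
Log2 fold change against the matched control (y axis) of each tested gene of 3 lists, sorted within each of 5 comparisons (x axis); filled points have an adjusted p under 0.05 and bars are medians. The metabolic ATF4 targets stand highest in RISP_KO, with 23 of 36 filled, and the p53 targets in antimycin A, with 12 of 14 filled.

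Levels were compared between genes per kilobase of exon (CPM per kb). In RISP_WT the order was Ddit4 (mean 41.3), Atf4 (31.3), Ppp1r15a (29.7), Ddit3 (9.70), Sesn2 (8.25), Trib3 (3.82), Stc2 (0.358), Atf5 (0.270), Atf3 (0.0877) and Chac1 (0.0752). The library ranges of Ddit4, Atf4 and Ppp1r15a overlapped, as did those of Ddit3 and Sesn2, of Stc2 and Atf5, and of Atf3 and Chac1. In untreated cells in vitro Atf4 was highest (90.3) and Stc2 lowest (0.143), and Atf5 stood at 9.23, but the kit and the culture differ from RISP_WT, and these levels come from tables scaled separately.

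The genes whose profile lay closest to Atf4 over the 28 libraries, by the mean absolute difference of log2 CPM centred on each table's controls, were Hnrnpdl (0.17), Tmem259 (0.18) and Taf1d (0.19) among 7828 genes compared. The mean absolute deviation of Atf4 itself was 0.27. For Ddit3, whose own deviation was 0.47, they were Scrib (0.32), Mxd1 (0.32) and Mapkapk2 (0.32). The libraries share tables, kits and controls, so these distances are a description.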

How the data were processed

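All values start from the raw counts that the authors deposited, 1 per gene and library. Per the submitters' processing notes, bcl2fastq, TopHat, HTSeq, edgeR and the build mm10 were used; versions and the strand setting are not given in the sources used here. Per the labels' protocols, libraries of RISP_WT and RISP_KO came from the Takara kit and all others from the NEB kit. One more table, whose 11 columns of per-sample values match no label, was not used here.

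Genes with low counts were removed with filterByExpr, libraries scaled by TMM, and 9 comparisons tested with edgeR 4.0.16 (glmQLFTest, R 4.3.3), adjusted by Benjamini-Hochberg over all genes; the 12 in vitro libraries shared 1 fit. CPM use TMM-scaled library sizes, log2 fold changes the default prior count, and SEs are the size of the unshrunken log2 fold change over the root of its F. Exon lengths are from GENCODE M21. Alternatives were DESeq2 1.42.0, RLE factors, other filters, a replicate block, in vitro fits restricted to the 2 groups in question, and leaving out libraries; 2 fits leaving out 2 chimera libraries were chosen after seeing the data. The fits were tested on simulated counts. The members and lists were chosen with earlier results of these data known. All 10 members are named, and of each list described up to 3 called genes with the smallest p, or up to 2 uncalled ones. For likeness, a mean log2 CPM of 3 or more was needed in every table. No pair of libraries was a duplicate. The coefficient of variation between libraries was 21.6% for the 3-week-old groups, 20.5% for the chimera groups and 14.7% for the in vitro groups.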

Additional observations from a re-analysis of the deposited data

Results flagged for a closer look

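Of 40 combinations of a gene and a group of 4 libraries, 6 had 1 library far from the other 3. The limit used gives about 1 in 20 for independent, normally distributed values. Some of these genes have very few counts and the combinations share libraries, so the 6 do not measure an excess over chance. In RISP_WT 1, Ppp1r15a read 198 CPM against 46.3 to 53.3 in the other 3, and Atf4 read 98.5 CPM against 63.8 to 66.9. In RISP_WT 4, Ddit3 read 11.3 CPM against 17.8 to 18.7, and Atf3 read 0.273 CPM against 0.155 to 0.165. In RISP_Chimera_KO 2, Atf3 read 4.07 CPM against 0 to 0.388, and Trib3 read 4.07 CPM against 6.38 to 6.64.

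The knockout effect on Stc2 differed between the experiments by -4.58 on the log2 scale, chimeras minus 3-week-old mice.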

How the results depend on the processing

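The count of the 10 genes called moved by over 1.5 times in these cases. With DESeq2 it was 2 in place of 0 in the chimeras, 1 in place of 2 with piericidin (its adjusted p of Chac1 was NA), 2 in place of 1 with 3-NPA, and 2 in place of 1 for the difference of knockout effects. For piericidin it was also 1 without a filter, 1 with a filter of 1 CPM and 0 with only the 2 groups compared; for the difference it was 2 with the 1 CPM filter. The cause was not tested. Leaving out 1 library gave 3 to 5 for RISP_KO (3 without RISP_WT 3), 0 to 0 for the chimeras, 0 to 2, 0 to 1 and 2 to 3 for piericidin, 3-NPA and antimycin A, 0 to 1, 0 to 3 and 0 to 1 for antimycin A against piericidin, antimycin A against 3-NPA and piericidin against 3-NPA, and 1 to 2 for the difference.

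With the replicate number as a block, the count was 1 in place of 2 with piericidin and 2 in place of 1 for antimycin A against piericidin; in RISP_KO, Atf4 passed (adjusted p = 0.0249) and Atf5 did not (0.0606); Ddit4 passed in antimycin A against 3-NPA (0.0109) and against piericidin (0.0411), and Chac1 with piericidin did not (0.0576). Between same-numbered libraries, correlations of the deviations from group means ran from -0.041 to 0.029 for the 3-week-old groups, from -0.10 to 0.13 for the chimera groups and from 0.0040 to 0.090 for the in vitro groups. In vitro all 18 were positive, against 8 of 36 between different numbers, and 12 of 12 libraries correlated best with their own number. This is a hint of pairing from the data and not from the design. None of the in vitro correlations reached the 0.1 set as the limit, so the main fits have no block. Pairing in vitro is not excluded by that limit.

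Signs turned only among log2 fold changes that had not passed. Leaving out 1 library gave ranges of -0.037 to 0.21 (Ddit4) and -0.75 to 0.25 (Ppp1r15a) in RISP_KO, -0.20 to 0.0082 (Sesn2), -0.19 to 0.10 (Ddit4) and -1.24 to 0.19 (Ppp1r15a) in the chimeras, -0.023 to 0.26 (Atf5) and -0.060 to 0.64 (Sesn2) with piericidin, -0.23 to 0.55 (Atf3) and -0.64 to 0.049 (Atf5) with 3-NPA, and -0.24 to 0.40 (Atf3) with antimycin A. Without RISP_Chimera_KO 2 and 4, Ddit4 was 0.14.

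Over all genes, calls in RISP_KO numbered 1364, 2068 with DESeq2 and 895 with the block; in the chimeras 102, 446 with DESeq2, 208 without a filter and 247 without RISP_Chimera_KO 2 and 4. In vitro depth limits Chac1 and Stc2, whose counts per library were 0 to 33.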

Other observations

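Among the bZIP factors, Fosl2, an AP-1 subunit, rose with each inhibitor. It read 75.7 ± 5.92 CPM untreated, 178 ± 24.1 CPM with piericidin, 117 ± 19.4 CPM with 3-NPA and 184 ± 15.6 CPM with antimycin A (SD, n = 3). Its log2 fold changes were 1.23 ± 0.13 (edgeR, adjusted p = 1.75e-08), 0.63 ± 0.13 (adjusted p = 0.00351) and 1.28 ± 0.13 (adjusted p = 1.71e-09). Batf, higher in the 3-week-old knockout, fell in the chimera knockout from 37.1 ± 2.46 to 24.4 ± 2.72 CPM (SD, n = 4; log2 -0.60 ± 0.10, edgeR adjusted p = 0.0206). The difference between these effects was -1.33 ± 0.17 on the log2 scale (adjusted p = 2.22e-04).

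Of 9 NRF2 targets tested in the 3-week-old knockout, where 9.86% of all genes passed, 0 rose and 2 fell, Osgin1 (log2 -1.62 ± 0.18, edgeR adjusted p = 4.28e-04) and Hmox1, heme oxygenase 1 (-1.06 ± 0.30, adjusted p = 0.0475). The summed macrophage markers were also lower there, 6.69 to 13.1 CPM against 17.0 to 52.7 CPM with 4 of 9 tested called, and their part was not tested. With piericidin Nqo1, a quinone reductase (1.92 ± 0.47, adjusted p = 0.00414), and Hmox1 (1.32 ± 0.45, adjusted p = 0.0447) rose, and 0 of 7 fell. With antimycin A 1 of 7 rose, Nqo1 (1.88 ± 0.47, adjusted p = 0.00399), and 1 fell, Txnrd1 (-0.39 ± 0.10, adjusted p = 0.00327). Of all genes, 13.6% and 15% passed in these 2 comparisons.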
